A study of Drosophila melanogaster with 19 samples.

Results

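The Drosomycin family of Drosophila melanogaster is a small set of related genes that encode short, cysteine-rich, secreted defence peptides. *Drs* encodes Drosomycin itself, an antifungal peptide that the fat body, the insect counterpart of liver and adipose tissue, secretes into the hemolymph when the Toll pathway is active, and that epithelia can make under control of the Imd pathway. *Drsl2* (called *Dro2* on older gene lists) and *Drsl3* encode close relatives of the peptide, and both are known from the gut, where JAK/STAT and JNK signals act on this family. The 3 genes followed here are *Drs* (probe A_09_P012336), *Dro2* (probe A_09_P015166) and *Drsl3* (probe A_09_P015186), 3 of 32162 probes on the array. The genes were chosen by symbol, *Drs* and *Drsl3* also by probe. The probe of *Dro2* was found through the gene's reported fold change in the *c564>nub-RB* flies described below. That fold change is thus not independent of the choice of probe. The other genes of the family that could be named, *Drsl1*, *Drsl4* and *Drsl5*, are described beside these 3, and *Drsl6* is not analysed here. In the RefSeq annotation of assembly Release 6 all 7 genes lie on chromosome arm 3L. *Drsl2*, *Drsl3*, *Drsl4* and *Drsl5* follow each other with no other gene start between them, *Drsl1* and *Drsl6* are immediate neighbours further along the arm, and *Drs* comes last, with 1 gene start between it and *Drsl6*.

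Global expression was profiled on 19 one-color arrays of adult females, aged 10 days. Per the methods, flies were raised at a lower temperature and kept as adults at 25 °C in mixed-sex populations. Each fly was dissected into gut and "rest", the body without gut and head, and each array holds RNA from a pool of flies. All groups carried *c564-Gal4*, a driver that is active in the fat body and midgut but also in other tissues. The *c564>nub-RB* flies (*w; c564-Gal4>UAS-nubRB*) overexpressed the transcript of the Nub-PB isoform of the POU factor Nubbin in 4 rest and 3 gut samples. The *c564>Pdm2-RB* flies (*w; c564-Gal4>UAS-Pdm2RB*) carried a transgene for the related factor Pdm2 in 3 rest and 3 gut samples. The control, *c564>+*, was *w1118* with 1 copy of the driver (spelt *c546-Gal4/+* in the labels) and no UAS transgene, in 3 rest and 3 gut samples. Both lines were compared with the same control arrays, so the control samples are shared between the comparisons, and an effect of the transgene cannot be told apart from other differences between the strains. The methods describe the samples as biological replicates from independent pools of flies.

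Signals are quantile-normalized intensities in arbitrary units. Probes entered a test if either compared group averaged more than 130, and a probe was called at a Benjamini-Hochberg adjusted p of 1% with limma, which fits all probes together. All log2 differences are differences of mean log2 signals, given with their standard error (SE). Levels are compared within a probe and never between probes. The 3 probes were well above background on all 19 arrays. As a check of the labels, a *nub* probe (A_09_P161260) read 31.3 to 42.0 in *c564>nub-RB* rest against 3.98 to 13.9 in control rest, and 143 to 331 against 44.7 to 88.7 in gut. This probe was also above control in *c564>Pdm2-RB* gut, at 93.0 to 158. The brightest *nub* probe overlapped the control. It read 56.6 to 99.6 against 54.6 to 127 in rest, and 7579 to 11087 against 5612 to 10226 in gut. The remaining *nub* probes were above control in *c564>nub-RB* rest without overlap. In gut, probe A_09_P196920 overlapped the control, at 123 to 223 in *c564>nub-RB* against 82.8 to 148. Probes A_09_P048246 and A_09_P210005 were above control gut without overlap in *c564>nub-RB*, but also in *c564>Pdm2-RB*. No symbol led to *pdm2*, which is not analysed here. In the control, 20 of 20 named genes of gut digestive enzymes were higher in every gut than in every rest sample. The rest samples still differed in these genes. Their summed signal was 474242 to 1249283 in control rest, 3468 to 420919 in *c564>nub-RB* rest and 4056 to 92820 in *c564>Pdm2-RB* rest, against 4856703 to 5637576 over the 9 gut samples. In such bulk samples, fewer cells of a type and less RNA per cell cannot be told apart.

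The control showed the baseline of each gene in the 2 tissues. *Drs* was bright in gut, with signals of 174207, 228236 and 238698 in replicates 1, 3 and 4, and spread widely in rest, with 9341, 1063 and 16480. The gut samples were all above the rest samples, and the 3 rest samples differed among themselves by 15.5-fold. *Drs* rose in gut over rest by 5.27 on the log2 scale (SE 1.01, adjusted p = 0.00405), a 38.7-fold difference, in a comparison in which 59.4% of the 17515 probes tested were called, 23.4% were called higher in gut, and 30.9% were higher in gut without overlap. The call did not hold when control rest replicate 1 (adjusted p = 0.0105) or control gut replicate 1 (0.0101), 3 (0.0178) or 4 (0.0147) was left out, and the difference was 4.09 without control rest replicate 3 and 6.07 without replicate 4. The rest sample with the highest *Drs* signal was also the one with the highest gut enzyme signal, 1249283 in replicate 4, and the lowest was the one with the least, 474242 in replicate 3. The part of gut RNA in the rest level was not tested.

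*Dro2*, known from the gut, was dim in both tissues of the control. It read 56.2, 89.8 and 74.6 in gut and 24.4, 34.2 and 59.2 in rest, and the lowest gut sample was below the highest rest sample. The difference of 0.98 on the log2 scale (SE 0.37) was not tested, since neither group reached the signal threshold. *Drsl3* was also dim, with 24.8, 12.4 and 14.0 in gut and 35.4, 47.9 and 12.9 in rest, with overlapping groups. Its mean log2 signal was 0.78 lower in gut (SE 0.55), and again no test was made. Among the 3 genes, *Drs* alone thus passed the threshold for a test in the control, and its gut and rest levels stood far apart.

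**Figure D1:**
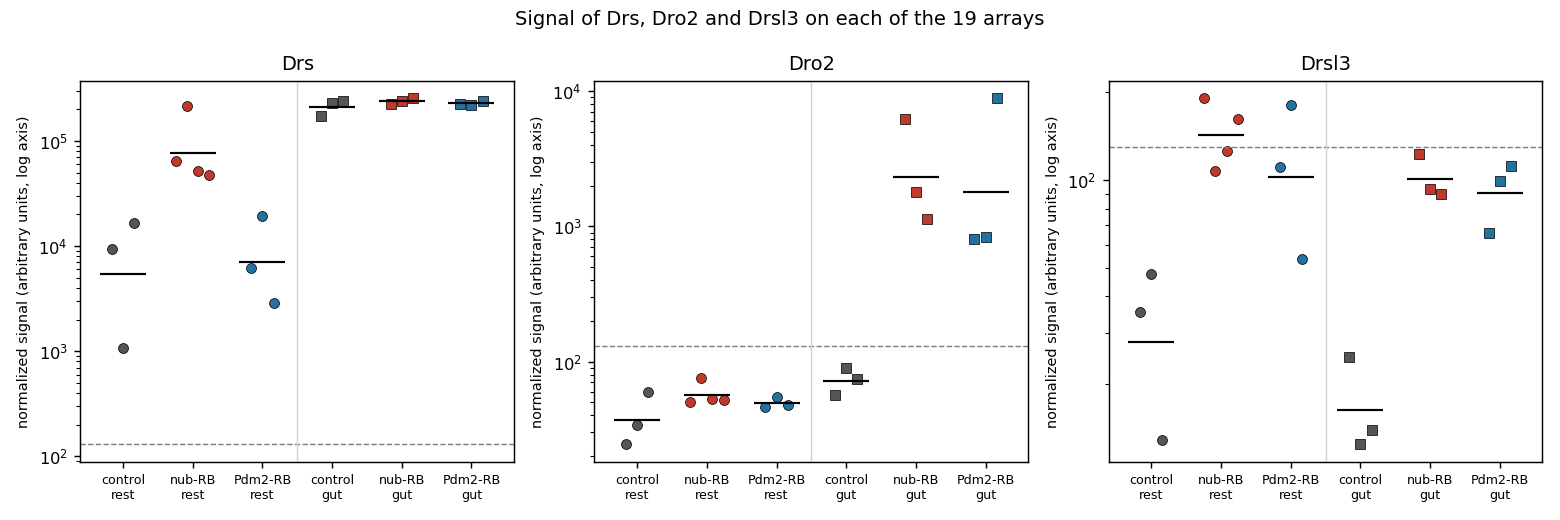
Normalized signal (arbitrary units, log axis) of *Drs*, *Dro2* and *Drsl3* on each of the 19 arrays, by genotype and tissue. Circles are rest and squares are gut samples, horizontal bars are means of the log2 values, and the dashed line is the signal of 130 that a group mean had to pass. *Drs* sits between 174207 and 254350 in all 9 gut samples, *Dro2* reads 807 or more only in gut of the 2 overexpressing lines, and *Drsl3* is lowest in the control in both tissues.

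In rest, *Drs* differed between the lines. In *c564>nub-RB* the 4 samples read 64258, 217117, 51632 and 47697, and in *c564>Pdm2-RB* the 3 samples read 6259, 19390 and 2902. All *c564>nub-RB* samples were above all control and all *c564>Pdm2-RB* samples, whereas the *c564>Pdm2-RB* and control samples overlapped. The lowest *c564>nub-RB* sample was 2.89-fold above the highest control sample. The log2 difference of *c564>nub-RB* from control was 3.81 (SE 0.98, 14.0-fold), with an adjusted p of 0.0453 that did not pass 1%, where 4.31% of the 16491 probes tested were called and 14.9% lay higher without overlap. Against *c564>Pdm2-RB* the difference was 3.44 (SE 0.74, 10.8-fold, adjusted p = 0.0534), where 0.99% of 16360 probes were called and 8.92% lay higher without overlap. Leaving out control rest replicate 3 lowered the difference of *c564>nub-RB* from control to 2.63, and leaving out replicate 4 raised it to 4.60. *c564>Pdm2-RB* differed from control by 0.37 (SE 1.15, adjusted p = 0.893, with 0.863% of 16454 probes called), with a 95% interval of -2.41 to 3.15 that leaves room for a large difference either way.

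The choice of model set whether the *c564>nub-RB* difference was called. With the spread estimated over all 6 groups, the adjusted p for *Drs* in *c564>nub-RB* rest against control was 0.0041. That fit shares 1 spread between the rest groups (log2 standard deviation 1.02 to 2.09) and the narrower gut groups (0.07 to 0.25). Its SE is thus not that of the rest groups alone. With the scan batch in the model the adjusted p was 0.0142, while the difference from *c564>Pdm2-RB* was then called (adjusted p = 0.00872). Arrays were scanned in 2 batches. The difference of *c564>nub-RB* from control was 3.72 in the batch with 1 array of each, and 4.10 in the batch with 3 against 2. The highest *c564>nub-RB* sample, replicate 2, had the least gut enzyme signal of all rest samples, 3468, and replicates 1 and 4, with 414486 and 420919, had *Drs* signals of 64258 and 47697. The gut enzyme signal was higher in each control rest sample than in each *c564>nub-RB* rest sample. The part of gut RNA in the *Drs* differences between rest groups was not tested.

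**Figure D2:**
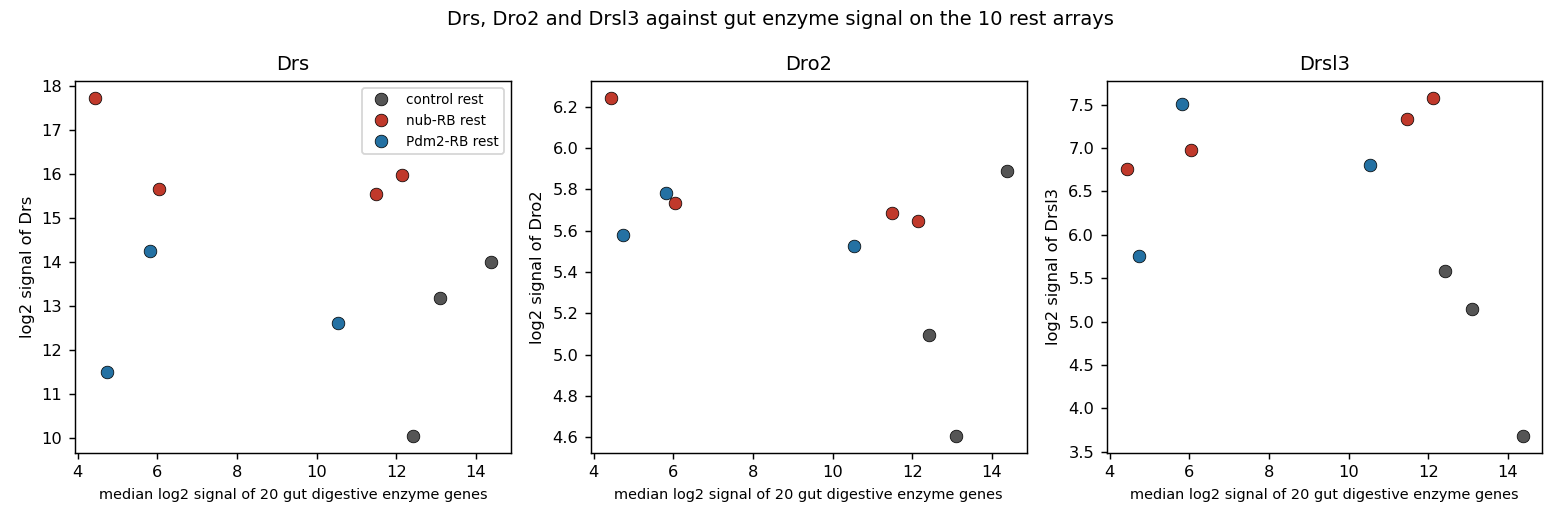
Log2 signal of *Drs*, *Dro2* and *Drsl3* (vertical axes) against the median log2 signal of 20 gut digestive enzyme genes (horizontal axes) on the 10 rest arrays, 1 point per array. The control arrays lie at 12.4 to 14.4 on the horizontal axis and the arrays of the other lines at 4.43 to 12.1, and *Drs* is highest on the *c564>nub-RB* array with the lowest gut enzyme value.

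In gut, the normalized *Drs* signal stayed within a narrow band in every genotype. The *c564>nub-RB* guts read 225090, 240400 and 254350 and the *c564>Pdm2-RB* guts 226750, 221902 and 242201. All 3 genotypes overlapped, and the lowest and the highest of the 9 guts, at 174207 and 254350, bound a standard deviation of 0.16 on the log2 scale, against 2.29 over the 10 rest samples. The latter includes the differences between the genotypes in rest. Before normalization the same guts read 68468 to 352285, on arrays whose median signal also ran from 35.4 to 203. The narrow band is thus that of the normalized values. The differences from control were 0.18 for *c564>nub-RB* (SE 0.17, adjusted p = 0.618, 95% interval -0.24 to 0.59) and 0.12 for *c564>Pdm2-RB* (SE 0.16, adjusted p = 0.736, interval -0.27 to 0.51). Both turned negative, to -0.36 and -0.35, when arrays were scaled to their 75th percentile instead of quantile-normalized, so no direction is given. The *c564>nub-RB* effect on *Drs* was 3.63 lower in gut than in rest (log2 value -3.63, SE 1.17, adjusted p = 0.0803), which did not pass 1%, where 0.824% of 17952 probes were called. Ordered by mean log2 signal, the 3 gut groups came first, *c564>nub-RB* rest followed, and *c564>Pdm2-RB* and control rest came last. The only neighbours in this order that did not overlap were *c564>nub-RB* rest and *c564>Pdm2-RB* rest. The brightest *c564>nub-RB* rest sample (217117) lay above the dimmest control gut (174207).

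*Dro2* had the same order of groups by mean log2 signal as *Drs*, but the lines stood apart from the control in gut. Its large values were in gut of both overexpressing lines. The *c564>nub-RB* guts read 6184, 1799 and 1137 and the *c564>Pdm2-RB* guts 807, 828 and 8850.5, against 56.2 to 89.8 in control gut. All 6 guts of the lines were above all control guts, the lowest by 8.99-fold, but each line held 1 sample several times brighter than its other samples. The log2 difference from control was 5.01 in *c564>nub-RB* (SE 0.63, 32.3-fold, adjusted p = 0.0227) and 4.65 in *c564>Pdm2-RB* (SE 0.97, 25.0-fold, adjusted p = 0.0835). Neither passed 1%, where 0.497% of 16698 and 0.344% of 16566 probes were called and 14.3% and 12.3% lay higher without overlap. With all 6 groups in the model both were called, at adjusted p = 0.000607 and 0.00141. That fit pools the spread of these guts (log2 standard deviation 1.26 and 1.98) with narrower groups, at 0.34 in control gut and 0.14 to 0.65 in rest. When 1 array was left out, the differences ranged from 4.31 (without *c564>nub-RB* replicate 1) to 5.53 (without its replicate 4) and from 3.50 (without *c564>Pdm2-RB* replicate 4) to 5.23 (without its replicate 1). The lines differed from each other by 0.37 (SE 1.13, adjusted p = 0.929, with 0.339% of 16539 probes called, 95% interval -2.41 to 3.14), an interval too wide to say that they act alike.

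In rest, *Dro2* stayed below the threshold in every group. It read 50.2, 75.7, 53.3 and 51.5 in *c564>nub-RB*, 46.0, 55.0 and 47.7 in *c564>Pdm2-RB*, and 24.4 to 59.2 in control. The groups overlapped, with differences from control of 0.63 (SE 0.32) and 0.43 (SE 0.33) on the log2 scale that were not tested. The *c564>nub-RB* effect was 4.38 larger in gut than in rest (SE 0.73, adjusted p = 0.0102), just outside 1%. This difference between tissues was called when the scan batch was in the model (0.00909), and also when *c564>nub-RB* gut replicate 1 (0.00295) or replicate 4 (0.00929) was left out. In the order of mean log2 signals, *c564>nub-RB* and *c564>Pdm2-RB* gut came first and overlapped, and the next step, of 4.65 down to control gut, was the only one without overlap. Within scan batches the *c564>Pdm2-RB* gut difference was 6.76 (1 array against 2) and 3.86 (2 against 1). The *c564>nub-RB* guts were all scanned in 1 batch, in which the difference was 4.83 (3 against 2).

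*Drsl3* stayed dim on all arrays but was above the control in both lines and both tissues. In rest it read 191, 108, 126 and 162 in *c564>nub-RB* and 111, 181 and 53.9 in *c564>Pdm2-RB*, against 35.4, 47.9 and 12.9 in control. In gut it read 123, 93.5 and 90.0 in *c564>nub-RB* and 65.8, 99.4 and 112 in *c564>Pdm2-RB*, against 24.8, 12.4 and 14.0 in control. In none of these 4 comparisons with the shared control did the groups overlap. Over all 32162 probes, 10.9% in *c564>nub-RB* rest, 11.4% in *c564>Pdm2-RB* rest, 12.2% in *c564>nub-RB* gut and 9.62% in *c564>Pdm2-RB* gut were higher without overlap, and 0.899% were so in all 4. The only one past the signal threshold was *c564>nub-RB* rest, with a log2 difference of 2.36 (SE 0.45, 5.12-fold, adjusted p = 0.0168), which did not pass 1%. The others, not tested for want of signal, were 1.88 in *c564>Pdm2-RB* rest (SE 0.63), 2.64 in *c564>nub-RB* gut (SE 0.31) and 2.47 in *c564>Pdm2-RB* gut (SE 0.35). Without the threshold the gut differences had adjusted p of 0.0355 and 0.074. The *c564>nub-RB* effect was 0.28 larger in gut than in rest (SE 0.60, adjusted p = 0.801, interval -1.05 to 1.61), and the lines differed by 0.48 in rest (SE 0.40, adjusted p = 0.493).

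A second probe for the same *Drsl3* transcript (A_09_P213905) gave the same order in gut and another picture in rest. In gut it read 62.2, 54.3 and 55.8 in *c564>nub-RB*, 31.9, 56.7 and 72.6 in *c564>Pdm2-RB*, and 6.14, 4.65 and 9.39 in control. The lines lay above the control without overlap, as did 12.2% and 9.62% of all probes. The differences of 3.15 (SE 0.29) and 2.98 (SE 0.40) on the log2 scale are uncertain in size, since 1 of 3 control guts alone was well above background. In rest it read 1.57 to 2.31 in control, 1.64 to 4.04 in *c564>nub-RB* and 1.60 to 18.8 in *c564>Pdm2-RB*. No control or *c564>nub-RB* rest array had it well above background, so no fold is given for them. Both probes thus placed the guts of the lines above those of the control, and the brighter probe alone placed their rest samples above it without overlap. Over the 9 gut arrays the log2 signals of the probes had a Pearson r of 0.97 and a Spearman rho of 0.95, and over the 10 rest arrays 0.58 and 0.73. In rest the brighter *Drsl3* probe ran closest to *Drsl4*, with r = 0.99 and rho = 0.95, against 0.23 and -0.07 in gut. In gut both *Drsl3* probes also followed *Dro2*. The brighter had r = 0.91 and rho = 0.87 with it, and the second r = 0.92 and rho = 0.88. The likeness of the 2 probes in gut is thus not particular to *Drsl3*. These arrays share genotype groups and scan batches. Whether the brighter *Drsl3* probe also binds *Drsl4* transcripts, or either probe those of *Dro2*, was not tested.

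**Figure D3:**
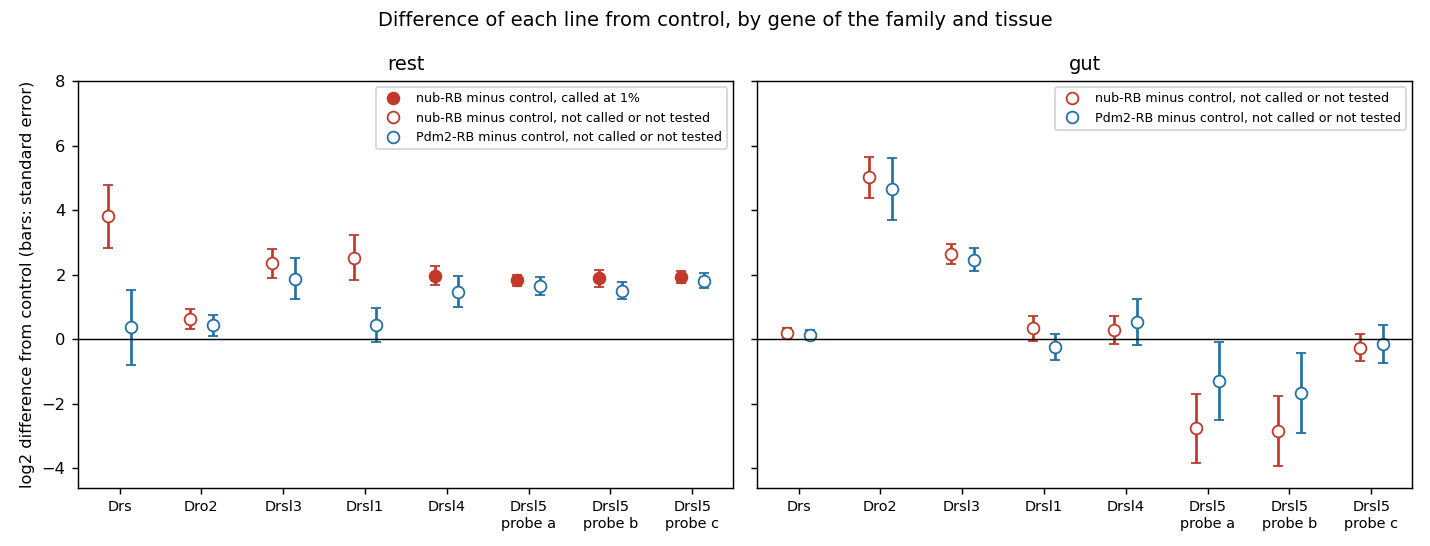
Log2 difference of each overexpressing line from control, with its standard error as bars, for 8 probes of the Drosomycin family in rest (left) and gut (right). Filled points were called at 1%, and open points were not called or were not tested. In rest the *Drsl4* and *Drsl5* probes are the called ones, in *c564>nub-RB* only, and in gut *Dro2* has the highest values, 5.01 and 4.65.

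The remaining named genes of the family did not share 1 pattern. *Drsl1*, a less studied relative, ran parallel to *Drs*. It read 343 to 828 in control gut and 7.69 to 18.98 in control rest, where 2 of 3 samples were well above background. It rose in gut by 5.59 (SE 0.48, adjusted p = 0.000195), where 23.4% of probes tested were called higher. The difference was 5.23 without the other rest sample, replicate 3. In *c564>nub-RB* rest *Drsl1* read 40.1 to 270, above the control without overlap, as were 10.9% of all probes. In *c564>Pdm2-RB* rest it read 9.45 to 32.2, overlapping the control. Across the 10 rest arrays, the log2 signals of *Drs* and *Drsl1* had a Pearson r of 0.95 and a Spearman rho of 0.99, which describes arrays that share their genotype groups and scan batches. Across the 9 gut arrays they had 0.83 and 0.82. Whether the *Drsl1* probe also binds *Drs* transcripts was not tested, so its values may not be those of *Drsl1* alone. The highest sample of both was *c564>nub-RB* rest replicate 2.

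*Drsl4* and *Drsl5*, neighbours on the chromosome, were the family members that were called in *c564>nub-RB* rest, where 3.4% of all probes tested were called higher. *Drsl4* read 3096, 2463, 2339 and 2896 there and 902, 901 and 391.7 in control rest. It rose by 1.97 (SE 0.30, adjusted p = 0.008), a call that held only without control rest replicate 4 (adjusted p = 0.00466) of 7 cases in which 1 array was left out, with adjusted p of up to 0.0291 in the others. In control gut *Drsl4* read 153, 78.2 and 50.6, below all rest samples, and it fell by 3.01 on the log2 scale (SE 0.52, adjusted p = 0.0026), where 36.1% of probes were called lower in gut. That call was lost without control rest replicate 1 (adjusted p = 0.0117) or 3 (0.0115) or control gut replicate 3 (0.0126). *Drsl5* has 3 probes, which rose in *c564>nub-RB* rest by 1.82 (SE 0.17, adjusted p = 0.00135), 1.89 (SE 0.26, adjusted p = 0.00553) and 1.93 (SE 0.19, adjusted p = 0.00172). When 1 array was left out, the call of the second probe held only without control rest or *c564>nub-RB* rest replicate 3, with adjusted p of up to 0.0265 in the others, and the other probes stayed called. With all 6 groups in the model the first 2 of these, and *Drsl4*, were no longer called (adjusted p = 0.188, 0.181 and 0.0195). The brightest *Drsl5* probe read 19305, 22071, 14946 and 19472 in *c564>nub-RB* rest, 11635, 17557 and 22599 in *c564>Pdm2-RB* rest, and 4910, 6515 and 4661 in control rest. The *c564>Pdm2-RB* samples were also above the control without overlap, as were 11.4% of all probes. Their differences of 1.50 to 1.82 over the 3 probes did not pass 1%, with adjusted p between 0.0129 and 0.0428.

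In gut, *Drsl5* went the other way in the brighter 2 probes. The brightest read 3973, 612 and 336 in *c564>nub-RB* gut and 13418, 2429 and 7705 in control gut. The groups overlapped, and the difference of -2.76 (SE 1.07, adjusted p = 0.25) did not pass the test. The *c564>nub-RB* effect in gut minus that in rest was -4.58 (SE 1.10, adjusted p = 0.0316) and -4.73 (SE 1.13, adjusted p = 0.0311) for these probes, outside 1%.

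**Figure D4:**
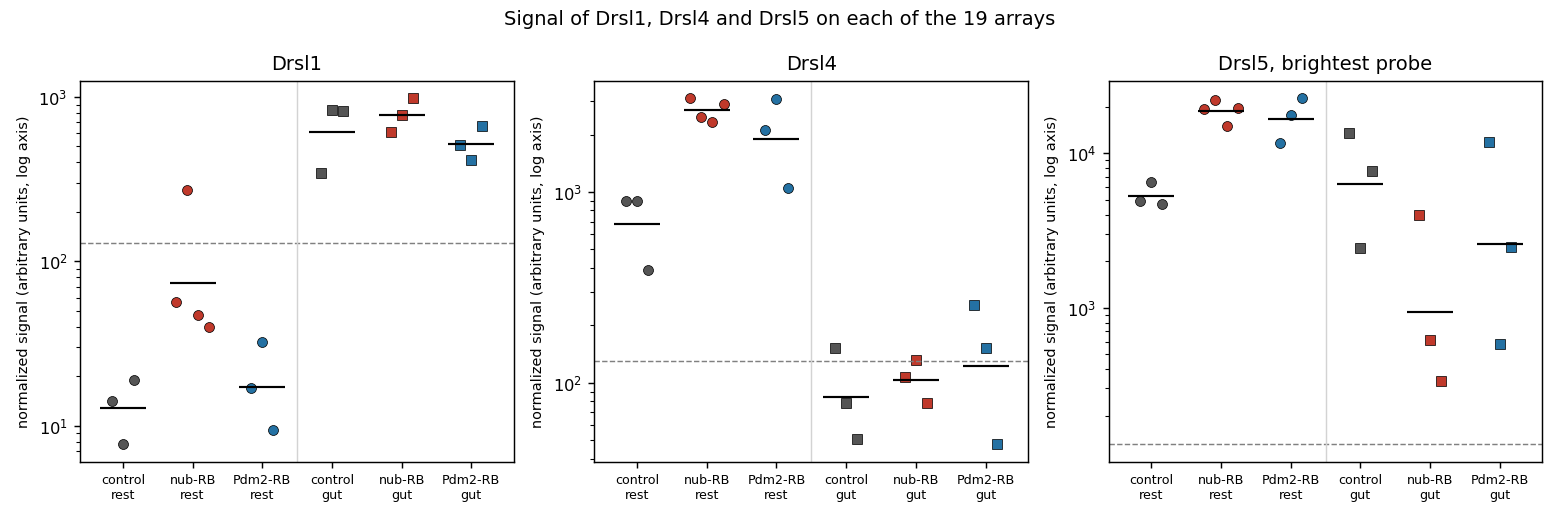
Normalized signal (arbitrary units, log axis) of *Drsl1*, *Drsl4* and the brightest *Drsl5* probe on each of the 19 arrays, with circles for rest, squares for gut, bars for means of the log2 values and a dashed line at the signal of 130. *Drsl1* is higher in gut and *Drsl4* in rest in all 3 genotypes, and the *Drsl5* control rest samples, 4661 to 6515, lie below all rest samples of the other lines.

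Other immune genes gave the setting for these values. Of 13 other genes of antimicrobial peptides, 12 could be named. In *c564>nub-RB* rest 8 of the 11 tested were called higher and none lower, against 3.4% of all probes called higher, with a median log2 difference of 6.63, where the median of all probes tested was -0.05. The largest differences among those called were in *DptA* (8.86), *AttC* (7.05), *DptB* (6.88) and *Mtk* (6.74), which encode the antibacterial peptides diptericin A, attacin C and diptericin B and the antifungal and antibacterial peptide metchnikowin. In *c564>Pdm2-RB* rest 1 of 11 was called higher, *AttA* (5.54), with a list median of 5.54, where 0.863% of all probes were called. In gut 0 of 9 were called in *c564>nub-RB* and 0 of 11 in *c564>Pdm2-RB*, against 0.497% and 0.344% of all probes, with medians of 3.75 and 3.77 and unadjusted p below 0.05 in 3059 and 2856 of all probes tested. Most symbols came from lists of genes that had been found changed on these arrays, so these counts are no independent evidence of a direction.

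Of 18 genes of the Toll pathway, which controls *Drs* in the fat body, 5 could be named. In *c564>nub-RB* rest 3 of 5 were called higher, against 3.4% of all probes, namely *SPE* (1.57, SE 0.20), the protease that cleaves the Toll ligand Spätzle, and the recognition proteins *PGRP-SA* (1.71, SE 0.26) and *PGRP-SD* (1.87, SE 0.23). None of the 5 was called in *c564>Pdm2-RB* rest or in gut of either line, and the list medians there were 0.76 in rest and 0.09 and 0.11 in gut. Markers of other cells also varied between the rest groups, as far as genes could be named, which were 5 of 7 for hemocytes. The summed signal of these 5 hemocyte genes was 10010 to 16714 in *c564>nub-RB* rest, 5243 to 7470 in *c564>Pdm2-RB* rest and 2346 to 3822 in control rest. Of them, 4 of 5 were called higher in *c564>nub-RB* rest, again against 3.4% of all probes, and none in *c564>Pdm2-RB* rest. The fat body gene *Lsp2*, a storage protein, read 733 to 17829, 119 to 4337 and 69.6 to 380 in the same groups, and the muscle actin *Act88F* 8822 to 43042, 2272 to 8705 and 626 to 3435. They were the only named genes of their lists, 1 of 7 for fat body and 1 of 5 for muscle. Neither was called against control in rest of either line, and both overlapped the control in *c564>Pdm2-RB* rest. The part of hemocytes, fat body and muscle in the rest values of *Drs*, *Drsl3*, *Drsl4* and *Drsl5* was not tested. Given how most symbols were obtained, the counts of Toll and hemocyte genes are likewise no independent evidence of a direction.

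The named probes whose log2 signals were most like those of each member over the 19 arrays, of 915 compared, are given as a description. For *Drs* they were *CG32834*, *nub*, *CG13309*, *CG17239* and *CG9259*, with Pearson r of 0.92 to 0.93. The *nub* probe is the one used to check the labels (A_09_P161260), which was above control in *c564>nub-RB* in both tissues. Its likeness to *Drs* is thus no evidence about the fly's own *nub* gene. For *Dro2* they were *CG17264* (0.93), *CG1208* (0.90), 2 probes of *Fatp3* (both 0.88) and *CG15210* (0.87). For *Drsl3* they were *Oat* (0.88), 2 probes of *Gnmt* (both 0.86), *CG8568* (0.86) and *CG16704* (0.86). The arrays share their tissue and genotype groups.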

How the data were processed

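Per the labels and file headers, the authors hybridized Cy3-labelled RNA to Agilent arrays and extracted the intensity of each spot with Agilent Feature Extraction 10.7.3.1. The deposited intensities are background-subtracted processed signals, which the authors then quantile-normalized in Partek. The deposited table of normalized intensities holds 1 linear value per probe. Here, control spots and spots flagged as outliers were left out, spots of a probe were averaged, and the 19 arrays were quantile-normalized and log2-transformed. Compared with the deposited table, 99.92% of these values differed by less than 0.01 (log2).

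Probes with a mean signal above 130 in at least 1 compared group, the authors' detection threshold as read from a supplementary table, were fitted with limma 3.58.1 in R 4.3.3 on the compared arrays, with Benjamini-Hochberg adjustment over all probes tested and a limit of 1%. The script was tested on simulated data. Symbols were given to 1404 probes, from the array's accessions and the paper's supplementary tables. *Dro2* was joined to its probe by its fold change in 1 such table within a relative difference of 1e-05, which 1 probe matched. By the same rule, fold changes of that table named 18 probes in total, and they were used only for naming. Named were the members and all probes of their family, the 5 named probes most correlated with each member, and, of the gene lists, those with the largest differences among called genes. The lists were other antimicrobial peptides, the Toll, Imd and JAK/STAT and JNK pathways, gut digestive enzymes, fat body, hemocytes, muscle and ovary. Of these, the Imd list had 1 named gene of 13 (*PGRP-LF*, called higher in control gut only), the JAK/STAT and JNK list 2 of 14 (*wnd*, called higher in each line in each tissue and in control gut, and *puc*, called higher in control gut only), and the ovary list none of 9. The members and lists were chosen with earlier results of these data known.

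Alternatives were scaling to the 75th percentile, the authors' normalized values, normexp background correction with an offset of 50, no signal threshold, all 6 groups in the model, slide, scan batch or replicate number as a block, the methods' t-test, the other *Drsl3* probe, and leaving out each array. Replicate numbers were not taken as pairs. No spot was saturated, and the number of arrays limits the precision. No sequences of the probes or genes were used here.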

Additional observations from a re-analysis of the deposited data

Results flagged for a closer look

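*Dro2* in *c564>nub-RB* rest read 75.7 in replicate 2 (6.24 on the log2 scale), far from the other 3 samples at 50.2 to 53.3. All 4 lie below the signal threshold, and in groups of this size about 1 in 20 has such a sample by chance.

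*Drsl5* in *c564>nub-RB* lay on opposite sides of the control in the 2 tissues. In the brighter 2 probes every rest sample was above the control mean and every gut sample below it, and the effect in gut minus that in rest was -4.58 and -4.73 on the log2 scale, with adjusted p of 0.0316 and 0.0311 in the interaction test, outside 1%.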

How the results depend on the processing

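Of 24 comparisons of *Drs*, *Dro2* and *Drsl3*, 15 reached the signal threshold, and of these only that of *Drs* in control gut and rest was called, and the methods' t-test did not call it (5.27, adjusted p = 0.0206). With all 6 groups in the model, *Drs* (3.81) and *Drsl3* (2.36) in *c564>nub-RB* rest and *Dro2* in gut of *c564>nub-RB* (5.01) and *c564>Pdm2-RB* (4.65) were called. For *Drs* and *Dro2* that model pools groups of unequal spread, as given above. *Drsl3* in *c564>nub-RB* rest was also called with the scan batch (2.27) or the slide as a random block (2.27). *Dro2* in gut minus rest was called with normexp (3.56), scan batch (4.09) and slide (4.37). *Drs* in *c564>nub-RB* against *c564>Pdm2-RB* rest was called with the scan batch (4.26). The slide block could be fitted only for the *c564>nub-RB* comparisons with control and for gut minus rest.

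With scaling to the 75th percentile the *Drs* differences in gut were -0.36 for *c564>nub-RB*, -0.35 for *c564>Pdm2-RB* and -0.018 between the lines, *Dro2* was 1.65 higher in control gut than rest and 0.44 higher in *c564>nub-RB* than *c564>Pdm2-RB* rest, and *Drsl3* was 2.15 higher in *c564>nub-RB* gut. With the scan batch, *Drs* in *c564>Pdm2-RB* rest was -0.35, and between the lines in gut *Drs* was -0.015 and *Dro2* -1.93. Normexp, whose offset compresses dim signals, gave 0.29 for *Dro2* in control gut against rest, and for *Drsl3* 0.72 in *c564>nub-RB* gut, 0.68 in *c564>Pdm2-RB* gut, 0.61 in *c564>Pdm2-RB* rest and -0.13 in gut minus rest. The second *Drsl3* probe gave 3.15 and 2.98 for *c564>nub-RB* and *c564>Pdm2-RB* gut, and no value for comparisons with control or *c564>nub-RB* rest, where it was not well above background. Of the relatives, the scan batch turned *Drsl1* in gut to -0.087 (*c564>nub-RB*) and 0.057 (*c564>Pdm2-RB*), and *Drsl4* in gut to -0.020 (*c564>Pdm2-RB*) and 1.12 (between the lines). The cause of these changes was not tested.

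Same-numbered samples had correlations of -0.47 to 0.65 in their deviations, and were not all above 0.1 in any comparison with 3 pairs. For *c564>Pdm2-RB* against control in gut, which has 2 pairs, they were 0.41 and 0.65. With the replicate block, *Drs* in *c564>nub-RB* against *c564>Pdm2-RB* rest was 3.63 (adjusted p = 0.00912), *Drs* in *c564>Pdm2-RB* rest turned to -1.54, *Dro2* between the lines in gut to -0.012 and *Drsl1* in *c564>Pdm2-RB* gut to 0.14. *Drs* in control gut and rest stayed called (adjusted p = 0.00917). In *c564>nub-RB* rest, *Drsl4* and the 3 *Drsl5* probes were not called with the replicate block (adjusted p = 0.0333 to 0.0528) or with the methods' t-test (0.0155 to 0.04).

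The number of probes called by limma varied more than 1.5 times over the alternatives that used all arrays, from 710 to between 80 and 1534 for *c564>nub-RB* rest, 83 to between 0 and 716 for *c564>nub-RB* gut, 142 to between 0 and 314 for *c564>Pdm2-RB* rest, 57 to between 0 and 448 for *c564>Pdm2-RB* gut, 162 to between 26 and 452 between the lines in rest, 56 to between 0 and 242 between them in gut, and 148 to between 18 and 355 for gut minus rest. With 1 array left out these counts were 214 to 547, 6 to 46, 44 to 166, 6 to 31, 50 to 83, 7 to 27 and 23 to 696, in the same order. The counts of 0 came with the replicate block, where 1806, 1505, 3525 and 513 probes had an unadjusted p below 0.05 in *c564>nub-RB* gut, *c564>Pdm2-RB* rest, *c564>Pdm2-RB* gut and between the lines in gut.

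With 1 array left out at a time, *Drs* in control gut against rest ranged from 4.09 to 6.07, *Drs* in *c564>Pdm2-RB* against control from -0.81 to 1.16 in rest and from -0.020 to 0.21 in gut, and *Dro2* between the lines in gut from -0.34 to 1.51. The *c564>nub-RB* effect in gut minus rest ranged from 3.68 to 4.90 for *Dro2* and from -0.11 to 0.84 for *Drsl3*. Among the relatives, *Drsl1* in *c564>nub-RB* gut ranged from -0.087 to 0.55, the brightest *Drsl5* probe from -0.29 to 0.94 in control gut against rest and from -0.086 to 0.39 between the lines in rest, the dimmest *Drsl5* probe from -0.030 to 0.19 there, and *Drsl4* between the lines in gut from -0.93 to 0.28.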
